A study of Rattus norvegicus with 32 samples.

Results

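The genes described here are 10 markers of the fields of the rat hippocampus, taken by symbol from the 32883 genes of 2 tables of raw read counts. They are Prox1, C1ql2 and Calb1 for the dentate gyrus, Wfs1, Pou3f1 and Mpped1 for CA1, Amigo2, Rgs14 and Pcp4 for CA2, and Bok for CA3. All 10 were found once in each table and passed the expression filter in both. Hippocampi of Sprague-Dawley rats at P65 were sequenced in 32 libraries, 16 male and 16 female, with 4 libraries of each sex in each of 4 diet groups.

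The groups were iron-sufficient rats (IS), iron-sufficient rats whose dams had choline added (ISch), rats with an early iron deficiency (FID, for formerly iron-deficient) and rats with that deficiency plus choline (FIDch). The female library names have ID and IDCh for the last pair. The study describes its model, in males, as one in which the dams ate a low-iron diet from early gestation into the neonatal period and iron-sufficient food after that, with choline added during gestation for some. Its methods describe a single male per litter in each experiment, but its RNA-seq data were taken from an earlier study. Whether the males sequenced here came from separate litters is not stated. For the females only the diet labels are known. Sequencing batch I held the males and batch II the females, and sex and batch cannot be told apart.

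The hippocampus relays signals from the granule cells of the dentate gyrus, whose mossy fibres reach CA3, to the pyramidal neurons of CA1, with the small CA2 field in between. Each field has its own set of transcripts, so a field marker in RNA of a whole hippocampus follows both how much of that field was in the sample and how strongly its cells transcribed the gene. In such bulk RNA, fewer cells of a type and less RNA per cell cannot be told apart. Prox1 encodes a homeobox factor that keeps granule cell identity, C1ql2 a secreted C1q-like protein of mossy fibre synapses, and Calb1 the calcium buffer calbindin, which CA1 pyramidal cells and interneurons make as well. Wfs1 encodes wolframin of the endoplasmic reticulum, Pou3f1 a POU-domain factor, and Mpped1 a metallophosphoesterase-domain protein. Amigo2 encodes an adhesion molecule, Rgs14 a regulator of G protein signalling that restrains synaptic plasticity in CA2, Pcp4 a small calmodulin-binding protein found also in granule cells, and Bok a BCL-2 family protein.

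The identifiers in the tables were ENSRNOG00000003694 for Prox1, ENSRNOG00000046863 for C1ql2, ENSRNOG00000007456 for Calb1, ENSRNOG00000005108 for Wfs1, ENSRNOG00000047686 for Pou3f1, ENSRNOG00000010834 for Mpped1, ENSRNOG00000007032 for Amigo2, ENSRNOG00000015616 for Rgs14, ENSRNOG00000001628 for Pcp4 and ENSRNOG00000018214 for Bok.

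Promoter sequences were at hand for 6 of the 10 genes, from RefSeq on build GRCr8, each running from 250 bases before to 50 after the start that RefSeq's table gives. Those of C1ql2, Pcp4 and Wfs1 are shown, because C1ql2 and Pcp4 were a dentate and a CA2 gene higher in female FIDch than in IS with no overlap between libraries, while Wfs1 is a CA1 gene that spread widely between the same libraries. Capitals mark matches, on either strand, to the GC box GGGCGG, the E-boxes CAGCTG and CAGATG, the TATA box TATAAA and the CCAAT box CCAAT. No pair of these motifs contains the other.
C1ql2 (chr13:34023652-34023951, plus strand): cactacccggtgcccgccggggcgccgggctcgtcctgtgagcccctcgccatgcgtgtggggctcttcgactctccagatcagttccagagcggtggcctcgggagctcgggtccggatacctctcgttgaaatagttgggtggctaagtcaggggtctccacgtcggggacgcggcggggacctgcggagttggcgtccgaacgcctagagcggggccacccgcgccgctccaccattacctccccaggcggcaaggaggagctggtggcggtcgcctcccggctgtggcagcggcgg
Pcp4 (chr11:49269936-49270235, plus strand): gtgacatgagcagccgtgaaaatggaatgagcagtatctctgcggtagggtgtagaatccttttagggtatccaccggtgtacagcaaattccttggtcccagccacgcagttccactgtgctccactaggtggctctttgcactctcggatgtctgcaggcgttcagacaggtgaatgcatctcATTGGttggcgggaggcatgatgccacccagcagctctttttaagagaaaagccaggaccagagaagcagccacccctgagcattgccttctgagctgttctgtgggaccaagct
Wfs1 (chr14:78034955-78035254, plus strand): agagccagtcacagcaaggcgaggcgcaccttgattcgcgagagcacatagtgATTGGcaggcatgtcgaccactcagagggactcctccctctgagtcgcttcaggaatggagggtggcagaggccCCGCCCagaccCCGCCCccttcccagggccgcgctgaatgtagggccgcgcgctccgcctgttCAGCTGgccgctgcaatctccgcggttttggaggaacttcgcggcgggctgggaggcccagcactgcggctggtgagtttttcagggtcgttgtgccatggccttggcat

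The C1ql2 window held none of these letters, the Pcp4 window held 1 CCAAT box, and the Wfs1 window held 2 GC boxes, 1 CAGCTG E-box and 1 CCAAT box. Over 33469 rat promoters of this length, 33.1% held a GC box, 15.1% CAGCTG, 16.6% CAGATG, 14.2% a TATA box and 37.5% a CCAAT box. A match is a description of the letters and not of a bound site. The counts were made on another build, Rnor_6.0 per the labels, so these positions were used for the sequences alone.

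Male libraries held 3515806 to 9517503 counts and female libraries 18439999 to 26616318, so the female values carry less counting error. The lowest count of any of the 10 genes was 86 reads and the highest 14151. Levels are given below as CPM, read counts per fixed number of library reads, scaled with TMM factors within each batch, and are compared between libraries and not between genes, because transcript lengths were not at hand. Defining neuronal genes were present in every library, with a summed 5078 to 6373 CPM over 5 excitatory neuron markers. Markers of tissue next to the hippocampus summed to 73.7 to 105.3 CPM over 6 striatal, 37.8 to 62.8 over 6 thalamic and 111.3 to 147.4 over 5 cortical genes. These sums are over different genes and are not ranked against each other. How much neighbouring tissue the samples held was not tested. Choroid plexus genes summed to 2.51 to 18.7 CPM in all libraries but those of male FID, where they reached 407.6. The label numbers 16 to 18 belong to 4 female libraries, ISch replicate 1 and FIDch replicates 1, 2 and 3, whereas the other 12 females have numbers from 1 to 7. What these numbers stand for is not given. Some comparisons of 2 groups that rest on these libraries are shown with and without them. The tests over more groups, the dentate-to-CA ratio and the correlations are shown only with these libraries included.

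**Figure D1:**
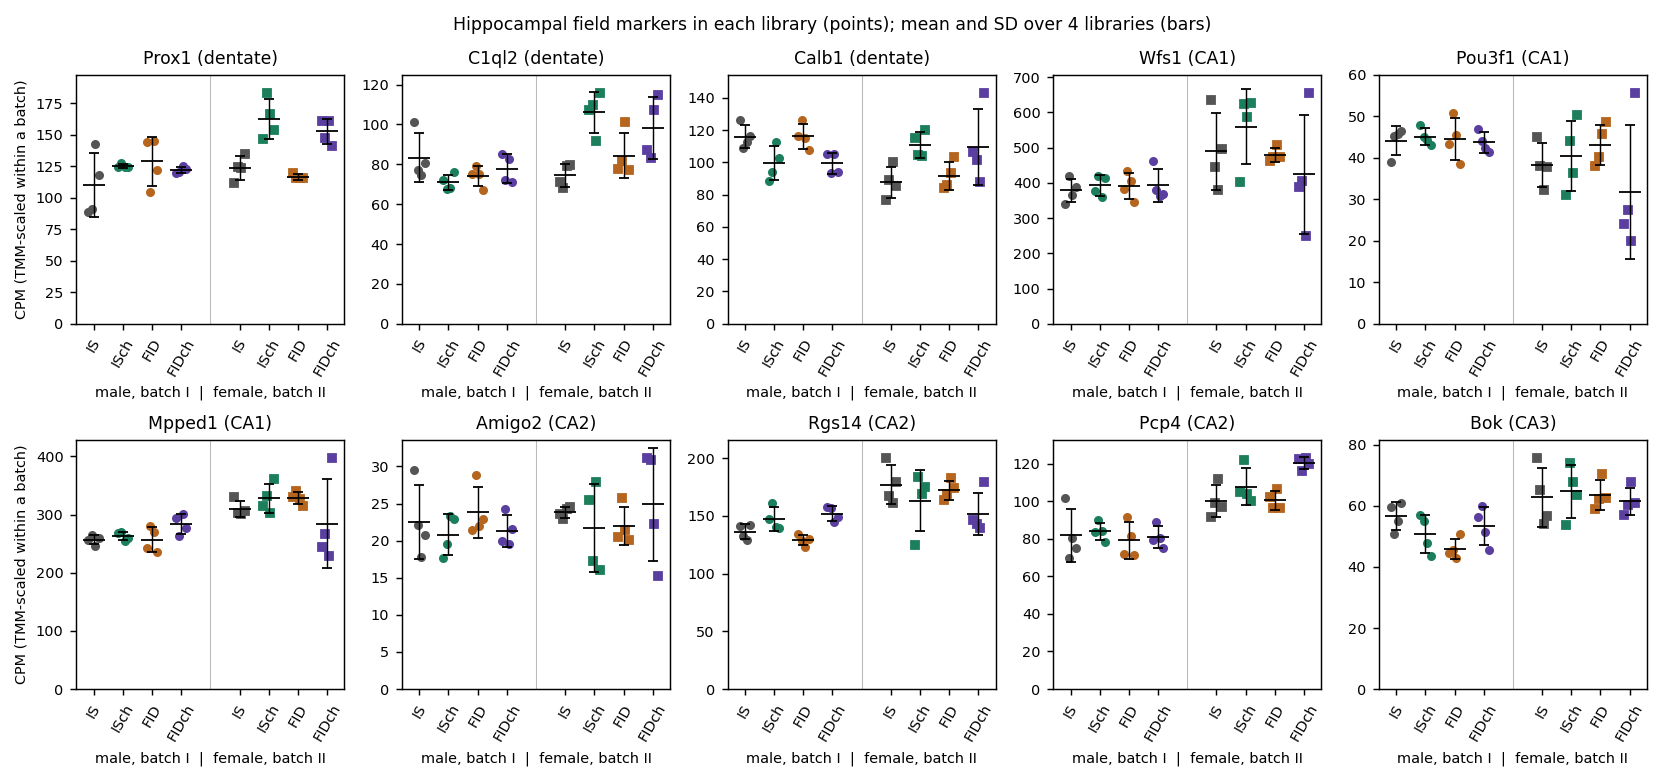
Level of each gene in CPM (vertical axis, from 0) in the 4 diet groups of males (circles, batch I) and females (squares, batch II), with a point per library and the mean and SD over 4 libraries. The 3 dentate genes lay higher in both female choline groups, and the 3 CA1 genes of female FIDch had 3 low libraries and 1 high one, from 20 to 55.6 CPM for Pou3f1.

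Among iron-sufficient females, the choline group had higher levels of all 3 dentate genes, and none of the 7 CA genes passed the test. A gene was called by the study's criterion, which asks for a log2 fold change beyond 0.2 in either direction together with p under 0.05 before adjustment. Prox1 was at 112.1, 124.2, 123.4 and 135.1 CPM in the IS females and at 146.8, 183.3, 166.8 and 153.8 in the ISch females. C1ql2 was at 70.9, 68.3, 79.2 and 79.8 CPM in IS and at 107.5, 109.7, 91.6 and 115.8 in ISch. Calb1 was at 76.4, 88.8, 100 and 85.6 CPM in IS and at 114.9, 104.6, 104.0 and 120.1 in ISch. For each of the 3 genes the lowest ISch library was above the highest IS library. The share of all genes that separate in this way is not given, here or for the other comparisons.

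C1ql2, the mossy fibre protein, rose most, by 0.51 ± 0.077 on the log2 scale (SE, n = 4 against 4, edgeR adjusted p = 0.0103). Prox1 rose by 0.39 ± 0.074 (edgeR adjusted p = 0.0227) and Calb1 by 0.34 ± 0.078 (edgeR adjusted p = 0.049). All 3 calls held in 8 of 8 fits that left out a library. Over the alternatives run, the highest edgeR or DESeq2 adjusted p was 0.0483 for C1ql2, 0.0679 for Prox1 and 0.164 for Calb1. Over all genes tested, 10.3% met the criterion in this comparison, and 5.14% met it as higher. An adjusted p under 0.05 was reached by 2.54%. The 7 CA genes had log2 fold changes of -0.14 to 0.19, with a median of 0.08 beside -0.00 over all genes. Without IS replicate 1 or without ISch replicate 1, the one with a label number of 16 to 18, Wfs1 also met the criterion at 0.34 and 0.32. Without that ISch library Prox1, C1ql2 and Calb1 were at 0.44, 0.50 and 0.32, all called.

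Further genes listed for the dentate gyrus were mostly higher in the same comparison. They were listed with earlier results of these data known, so they are not an independent check. Of 10 further dentate genes listed, 9 were in the table and 7 were tested. Of these 6 were called higher, none lower, and 5 had an edgeR adjusted p under 0.05, with a median log2 fold change of 0.46 beside -0.00 over all genes. Dsp, which encodes the desmosomal protein desmoplakin, was at 1.60 to 2.22 CPM in IS and 11.9 to 18.2 in ISch, a log2 fold change of 2.87 (edgeR adjusted p = 2.73e-05). Plk5, a polo-like kinase family gene, rose by 0.52 (edgeR adjusted p = 0.040). Of 5 further CA3 genes tested, Prss35 and Grik4 were called lower at -0.83 and -0.23, and of 4 further CA2 genes, Ntf3 was called higher at 0.32.

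Markers of other cells moved in this comparison too. Aldh1l1, an astrocyte gene, was higher at 0.36, as 1 of 5 astrocyte genes called, and the summed astrocyte level was 3126 to 3261 CPM in IS and 3109 to 3568 in ISch. The microglial genes Cx3cr1 and P2ry12 were called lower, as 2 of 5, and 3 of 5 immediate early genes, Arc, Egr1 and Junb, were called higher. Of 5 cortical genes Tbr1 and Rorb were called higher, with a summed level of 127.1 to 129.8 CPM in IS and 120.7 to 136.6 in ISch. No excitatory neuron, interneuron, oligodendrocyte, endothelial, thalamic or striatal gene listed was called. The part of these cells in the dentate result was not tested.

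In males the same comparison gave the dentate genes no common direction. C1ql2 was at 101.2, 77.4, 74.4 and 80.7 CPM in IS and at 71.9, 67.8, 68.3 and 76.1 in ISch. Calb1 was at 126.1, 109.2, 112.5 and 116.3 CPM in IS and at 88.5, 94.1, 112.4 and 102.7 in ISch. Both overlapped between groups, and both were highest in IS replicate 1. C1ql2 was called lower at -0.23 ± 0.093 (edgeR adjusted p = 0.451) and Calb1 at -0.22 ± 0.079 (edgeR adjusted p = 0.396), where 8.06% of all genes were called. Without IS replicate 1 neither was called, at -0.13 and -0.18. The C1ql2 call was also lost without ISch replicate 2 or 3, at -0.21 each, and the Calb1 call without ISch replicate 1 or 2, at -0.17 and -0.19. Prox1 had a log2 fold change of 0.19 and was called at 0.35 without IS replicate 3. Without ISch replicates 1 and 2, whose names have an added number and letter, Calb1 and C1ql2 were uncalled at -0.12 and -0.22 and Bok was called at -0.31. Of the 7 further dentate genes, Npnt was called higher at 0.59 and Plk5 lower at -0.30. Aldh1l1 of astrocytes, Cldn5 of endothelium and Lamp5 of cortex were called lower at -0.23, -0.31 and -0.31, each as 1 of its list, and their part was not tested.

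The difference between the batches in the effect of choline was itself tested in a fit of 16 libraries. For C1ql2 the male effect minus the female effect was -0.74 ± 0.128 on the log2 scale (edgeR adjusted p = 0.00698), and for Calb1 it was -0.56 ± 0.116 (edgeR adjusted p = 0.0249). For Prox1 it was -0.20 ± 0.157 (edgeR adjusted p = 0.582), so a difference was not shown for the homeobox factor. No CA gene met the criterion here. Over all genes 14.2% met it for this difference, and an adjusted p under 0.05 was reached by 1.28%. Of the 7 further dentate genes, 3 were called lower in this difference, with Dsp at -3.26 and Plk5 at -0.81 (edgeR adjusted p = 0.0112 and 0.0159). Male Dsp was at 5.18 to 8.18 CPM in IS and at 1.07 to 11.4 in ISch, which overlapped. Aldh1l1 of astrocytes differed in the same direction, at -0.59 (edgeR adjusted p = 0.0121). Slc1a3 of astrocytes, Neurod2 of excitatory neurons, Cldn5, Ppp1r1b of striatum, Lamp5 and Junb were also called lower in this difference, and Cx3cr1 of microglia and Folr1 of choroid plexus higher. Their part was not tested. Of the further CA2 and CA3 genes, Ntf3 was called lower at -0.54 and Prss35 higher at 1.17.

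**Figure D2:**
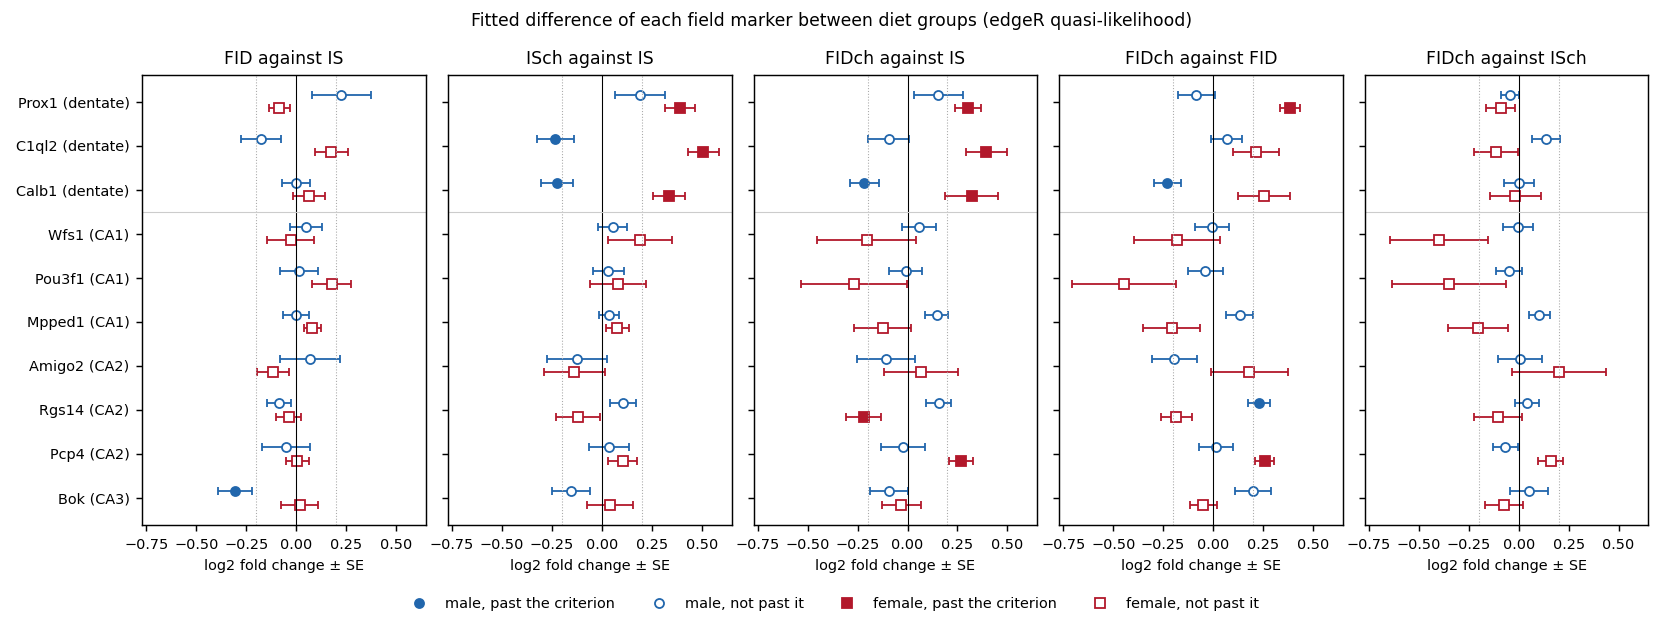
Log2 fold change with its SE (horizontal axis) of each gene in 5 comparisons, for males (circles) and females (squares), filled where the gene met the criterion and open where it did not, with dotted lines at a log2 fold change of 0.2 in each direction. Female dentate genes lay to the right of 0 in both comparisons of a choline group with IS, where C1ql2 was 0.51 and 0.40, while male Calb1 lay to the left in 3 panels, at -0.22, -0.22 and -0.23.

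Formerly iron-deficient females with choline had higher dentate genes than IS females as well, and a higher level of Pcp4. These libraries are compared with the same IS libraries as above, so the comparisons share their controls. Prox1 was at 160.8, 147.6, 161.1 and 141.5 CPM in FIDch, and C1ql2 at 87.0, 83.1, 107.4 and 114.9, all above the 4 IS libraries. Calb1 was at 106.3, 101.5, 88.0 and 143.0 CPM, which overlapped with IS. Pcp4 was at 91.8, 98.9, 112.0 and 97.0 CPM in IS and at 122.4, 116.2, 122.8 and 119.8 in FIDch, and did not overlap.

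Prox1 was called higher by 0.30 ± 0.066 (edgeR adjusted p = 0.0696), C1ql2 by 0.40 ± 0.103 (edgeR adjusted p = 0.140) and Pcp4 by 0.27 ± 0.061 (edgeR adjusted p = 0.0875). These 3 calls held in 8 of 8 fits that left out a library. The Calb1 call, 0.32 ± 0.133 (edgeR adjusted p = 0.334), was lost without IS replicate 1, 2 or 4, at 0.26, 0.33 and 0.31, and without FIDch replicate 4, at 0.17. Over all genes 8.98% met the criterion and 4.16% met it as higher, and none of the 10 genes had an edgeR adjusted p under 0.05 in this fit of 2 groups. With 4 groups fitted together Prox1 and Pcp4 did (edgeR adjusted p = 0.0276 and 0.0462), and with DESeq2 Prox1, Pcp4 and C1ql2 did (DESeq2 adjusted p = 0.00359, 0.00765 and 0.0181). The share of all genes that passed in those alternative fits is not given. The median of the 3 dentate genes was 0.32 and that of the 7 CA genes -0.12, beside -0.00 over all genes. Among markers of other cells, Aldh1l1 and Npas4 were called higher, and Gja1, Cx3cr1, Ttr and Fezf2 were called lower, each the only one called in its direction of its list. Their part in these values was not tested.

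Rgs14, the CA2 signalling regulator, was at 199.9, 167.3, 161.4 and 179.4 CPM in IS females and at 146.2, 143.0, 139.8 and 179.0 in FIDch. It was called lower at -0.22 ± 0.089 (edgeR adjusted p = 0.325). FIDch replicate 4 lay within the IS range and the other 3 lay below it. The call was lost without IS replicate 1 or 4, at -0.16 and -0.21, and without FIDch replicate 1, 2 or 3, at -0.20, -0.19 and -0.18. With the 3 FIDch libraries of label numbers 16 to 18 left out together, the value was 0.01, from a lone FIDch library assumed to vary like the other group. In that fit Prox1 was at 0.19 and no longer called, and C1ql2 and Pcp4 remained called at 0.62 and 0.26.

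Against FID females, which did not have choline, the FIDch females again had higher Prox1 and Pcp4. Prox1 was at 120.1, 115.4, 115.5 and 115.6 CPM in FID, all below the lowest FIDch library. Pcp4 was at 102.2, 96.2, 106.6 and 96.5 CPM in FID, also without overlap. Prox1 rose by 0.39 ± 0.052 (edgeR adjusted p = 0.00559) and Pcp4 by 0.26 ± 0.047 (edgeR adjusted p = 0.0217). Both calls held in 8 of 8 fits that left out a library, while 12.7% of all genes met the criterion and 2.28% reached an adjusted p under 0.05. C1ql2 had a log2 fold change of 0.22 (edgeR adjusted p = 0.358) and Calb1 one of 0.25 (edgeR adjusted p = 0.330), neither called. C1ql2 was at 77.5, 81.6, 101.1 and 77.1 CPM in FID, and its replicate 3 reached into the FIDch range. Without that library C1ql2 was called at 0.32, as it was without FIDch replicate 1 or 2, at 0.27 and 0.29. Calb1 was called without FID replicate 4 or FIDch replicate 3, at 0.32 and 0.35, and Rgs14 without FID replicate 1, at -0.21.

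The further dentate genes followed in part. In FIDch against IS 4 of 7 were called higher, with a median of 0.30 and 2 with an edgeR adjusted p under 0.05, and in FIDch against FID 3 of 7, with a median of 0.23 and 1 such gene. No further dentate gene was called lower in either. Dsp was at 10 to 16.1 CPM in FIDch and 1.37 to 1.85 in FID, with log2 fold changes of 2.81 against IS and 2.95 against FID. Ntf3, a CA2 neurotrophin gene, was called higher in both at 0.39 and 0.44. Against FID, Ccn3 of CA1 and Ociad2 of CA3 were called lower, at -0.59 and -0.29, while neither was called against IS.

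Markers of other tissue moved in FIDch against FID. Of 5 cortical genes, Tbr1, Cux2 and Fezf2 were called lower and none higher, with a median of -0.23, and the striatal gene Drd1 was called lower at -0.42. The summed cortical level was 134.3 to 147.4 CPM in FID and 111.3 to 129.5 in FIDch, and the summed striatal level 80.7 to 94.5 and 84.6 to 98.1. The astrocyte genes Aqp4 and Aldh1l1 were called higher at 0.30 and 0.36, as 2 of 5. Also called lower were Slc32a1 of interneurons, Cx3cr1 of microglia, Flt1 and Kdr of endothelium, Ttr of choroid plexus, Prkcd and Slc17a6 of thalamus, and the immediate early genes Fos and Egr1. The summed thalamic level was 54.8 to 62.8 CPM in FID and 43.3 to 51.0 in FIDch. No listed cortical or striatal gene was at 0 in any library. Their part in the Prox1 and Pcp4 values was not tested.

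In males, Calb1 and Rgs14 were the members of the 10 that met the criterion between FIDch and FID. Calb1 was at 116.2, 126.3, 115.0 and 107.6 CPM in FID and at 105.5, 93.4, 104.9 and 94.3 in FIDch, without overlap. Rgs14 was at 133.9, 128.1, 123.3 and 130.3 CPM in FID and at 158.0, 156.9, 144.3 and 149.0 in FIDch, also without overlap. Rgs14 was higher by 0.23 ± 0.056 (edgeR adjusted p = 0.0683) in 8 of 8 fits that left out a library. Its adjusted p was 0.0423 with 4 groups fitted together in edgeR and 0.0212 in DESeq2, where the share of all genes that passed is not given. Calb1 was lower at -0.23 ± 0.067 (edgeR adjusted p = 0.109), and the call was lost without FID replicate 2 or FIDch replicate 4, at -0.18 and -0.19. Over all genes 13.0% met the criterion. Bok, at 0.20 here, was called at 0.25 without FID replicate 4 and at 0.28 without FIDch replicate 4.

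Markers of other cells were called in this male comparison as well. Mbp of oligodendrocytes, Cldn5 of endothelium and Lef1 of thalamus were higher, at 0.29, 0.23 and 0.35. Vip of interneurons, Aqp4 of astrocytes, Drd1 of striatum, Slc17a6 and Calb2 of thalamus, Npas4 of the immediate early genes and Ttr of choroid plexus were lower. Thalamus had 3 of 5 genes called and each other list 1. The summed oligodendrocyte level was 6252 to 7573 CPM in FID and 7164 to 8370 in FIDch. Of the further CA3 genes, Prss35 was higher at 0.65 and Nectin3 lower at -0.20. None of the 7 further dentate genes tested was called, with a median of -0.04. The part of these cells in the Calb1 and Rgs14 values was not tested.

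Against IS, Calb1 was the only called gene of the 10 in male FIDch, at -0.22 ± 0.072 (edgeR adjusted p = 0.452), where 6.12% of all genes were called. The 4 FIDch libraries lay below the 4 IS libraries. The call was lost without IS replicate 1 at -0.17, and without FIDch replicate 2 or 4 at -0.19 each. Rgs14 did not overlap either, at 141.5, 132.9, 129.4 and 142.0 CPM in IS, and had a log2 fold change of 0.16 (edgeR adjusted p = 0.569), under the limit of 0.2. Prox1 met the criterion at 0.30 without IS replicate 3. Of the 7 further dentate genes tested, Npnt was called higher and none lower, with a median log2 fold change of 0.02. The differences between batches in this effect were -0.50 ± 0.159 for C1ql2, -0.55 ± 0.164 for Calb1, -0.30 ± 0.129 for Pcp4 and 0.37 ± 0.115 for Rgs14, as male minus female, with 12.9% of all genes called. None of these 4 had an adjusted p under 0.05 (edgeR adjusted p = 0.170, 0.141, 0.312 and 0.160).

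Between FID and IS, 1 of the 10 genes was called in males and 0 in females, which does not show that the groups were alike. In females the log2 fold changes were -0.12 to 0.18, with 6.47% of all genes called. C1ql2 and Pou3f1, both at 0.18, crossed the criterion in some fits that left out a library. C1ql2 was then at 0.21 without IS replicate 3 or 4 and at 0.22 without FID replicate 1 or 4, and Pou3f1 was at 0.27 without IS replicate 1 and at 0.24 without FID replicate 1. In males Bok, the CA3 gene, was at 59.6, 50.9, 54.9 and 60.9 CPM in IS and at 44.5, 45.6, 42.9 and 50.7 in FID. The highest FID library was just under the lowest IS library.

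Bok was called lower at -0.31 ± 0.086 (edgeR adjusted p = 0.786) and kept the call in 8 of 8 fits that left out a library, where 4.62% of all genes met the criterion. The dentate genes Prox1 and C1ql2 were at 0.22 ± 0.148 and -0.18 ± 0.10, uncalled and of opposite sign. Of the 7 further dentate genes tested, Stxbp6 was called higher and none lower, with a median log2 fold change of 0.10. Stxbp6 was also called higher in the difference between batches. Prox1 was at 89.0, 90.8, 142.9 and 117.9 CPM in male IS, and without replicate 3 of IS it was called at 0.38. It was also called, at 0.32, without FID replicate 2. The differences between batches were -0.34 ± 0.139 for C1ql2 (edgeR adjusted p = 0.546) and -0.30 ± 0.135 for Bok (edgeR adjusted p = 0.577), where 7.64% of all genes were called.

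Beside the male Bok value, 4 markers of other cells were called lower in FID, namely Ppp1r1b of striatum, Mbp of oligodendrocytes at -0.22, Cldn5 of endothelium at -0.29 and Aldh1l1 of astrocytes at -0.23. Each was the only one called of its list, of 6, 5, 3 and 5 genes. Ttr, a choroid plexus gene, was higher at 5.80. Of the 5 further CA3 genes tested none was called, with a median of -0.05 beside -0.01 over all genes. The part of these cells in the Bok value was not tested.

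Between FIDch and ISch, which share choline and differ in iron history, none of the 10 genes was called in either batch. In females these groups differ in label numbers as well, since 3 of 4 FIDch libraries and 1 of 4 ISch libraries have 16 to 18. In males the log2 fold changes were -0.07 to 0.14 with 8.12% of all genes called, and in females -0.40 to 0.20 with 4.57% called. Pcp4 was at 0.16 in females (edgeR adjusted p = 0.596) and was called at 0.23 without ISch replicate 2. Rgs14 was called at -0.21 without ISch replicate 1. Without FIDch replicate 4, the CA1 genes Wfs1, Pou3f1 and Mpped1 were called at -0.69, -0.76 and -0.41. The share of all genes called in that fit is not given. With label numbers 16 to 18 left out, a lone FIDch library had Prox1 at -0.24, Calb1 at 0.39, Mpped1 at 0.26 and Pou3f1 at 0.36. A p above the threshold does not show that these groups were alike.

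Tested over the 4 groups at once, Prox1, C1ql2 and Pcp4 differed among the females (edgeR adjusted p = 0.000912, 0.0277 and 0.0401), and Calb1 was under 0.05 before adjustment alone (edgeR adjusted p = 0.134, DESeq2 adjusted p = 0.0417). Of all genes 22.5% had an unadjusted p under 0.05 and 5.34% an adjusted one. Among the males Calb1, Rgs14 and Bok had an unadjusted p under 0.05, as did 14.3% of all genes, and none an adjusted one (edgeR adjusted p = 0.171, 0.132 and 0.320), although Rgs14 did in DESeq2 (DESeq2 adjusted p = 0.0358). The share of all genes that passed in DESeq2 is not given for either batch. The interaction of iron and choline, which asks whether choline acted differently after iron deficiency, was called for C1ql2 at 0.31 and Bok at 0.36 in males (edgeR adjusted p = 0.257 and 0.233). There 14.4% of all genes were called. In females no interaction was called and the background was 7.33%.

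The dentate genes were then set against the CA genes within each library, as the mean log2 CPM of Prox1, C1ql2 and Calb1 minus that of the 7 CA genes. This log2 ratio was -0.19 ± 0.21 (SD, n = 4) in IS females, -0.16 ± 0.04 in FID, 0.20 ± 0.12 in ISch and 0.25 ± 0.14 in FIDch. All 8 choline libraries, at 0.06 to 0.44, lay above all 8 others, at -0.48 to 0.01. In males the ratio was 0.12 ± 0.11 in IS, 0.19 ± 0.13 in FID, 0.04 ± 0.09 in ISch and 0.05 ± 0.10 in FIDch, and the groups overlapped. The ratio is a description of chosen genes and has no test.

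The mean log2 CPM of the dentate genes was 6.87 to 7.02 in ISch and 6.76 to 7.06 in FIDch, against 6.41 to 6.64 in IS. The CA1 mean was 7.31 to 7.82 in ISch, and in FIDch it was 7.05, 7.18 and 6.72 in replicates 1 to 3 and 7.93 in replicate 4. Taken as medians over the genes instead of means, the FIDch ratio exceeded that of IS by 0.10 rather than 0.44, and that of ISch exceeded it by 0.25 rather than 0.38.

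**Figure D3:**
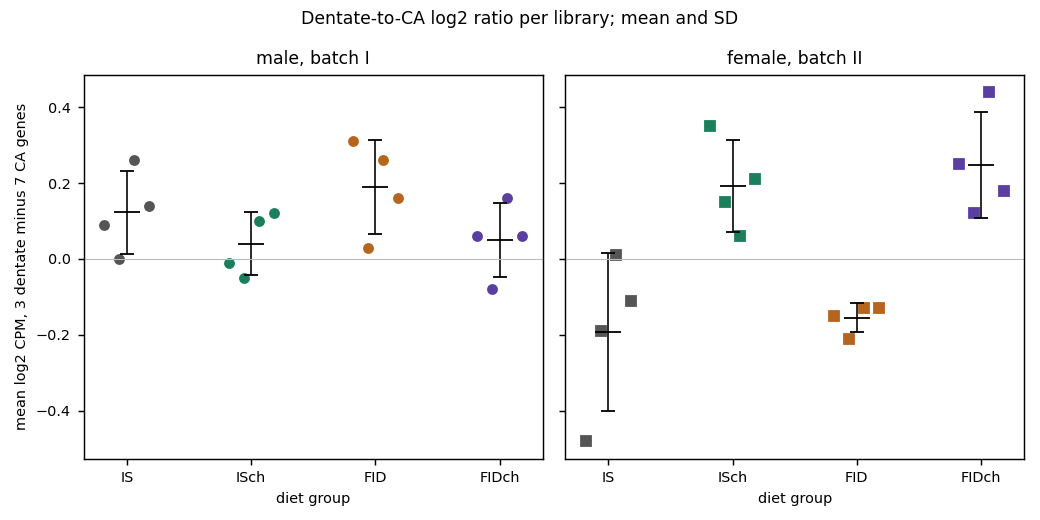
Dentate-to-CA log2 ratio (vertical axis) per library in the 4 diet groups, males on the left and females on the right, with group means and SDs. Female ISch and FIDch libraries sit between 0.06 and 0.44 and female IS and FID libraries between -0.48 and 0.01, while male groups overlap between -0.08 and 0.31.

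The CA1 genes of female FIDch were split between libraries. Pou3f1 was at 24.1, 27.5, 20 and 55.6 CPM in FIDch replicates 1 to 4. Wfs1 was at 387.1, 405.3, 249.9 and 655.0 CPM, and Mpped1 at 244.6, 267.4, 229.6 and 396.9. For all 3 genes replicate 4 was the highest of the 16 female libraries, and replicate 3 was the lowest. Replicate 4 stood apart beyond these genes. Against counting noise, its pairs with replicates 1, 2 and 3 had a chi-square per gene of 25.24, 22.39 and 24.25. Pairs among replicates 1, 2 and 3 had 5.345 to 6.867. In the other females Pou3f1 ran from 31.0 to 50.3 CPM.

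Because of this spread none of the CA1 genes was called between FIDch and any other female group, at -0.45 ± 0.259 for Pou3f1 against FID. Without FIDch replicate 4 the values against FID were -0.85 for Pou3f1, -0.46 for Wfs1 and -0.41 for Mpped1 (edgeR adjusted p = 0.00134, 0.0522 and 0.00124). Rgs14 was then at -0.27 and Amigo2, the CA2 adhesion gene, at 0.36. The values against IS were -0.68, -0.50 and -0.33 for these CA1 genes, and against ISch -0.76, -0.69 and -0.41, all called. The share of all genes called without FIDch replicate 4 is not given. With label numbers 16 to 18 left out, so that FIDch replicate 4 alone stood for its group and was assumed to vary like FID, the signs turned, at 0.36 for Pou3f1, 0.44 for Wfs1 and 0.27 for Mpped1 against FID. Amigo2, at 31.1, 30.9, 22.3 and 15.2 CPM, then had -0.53. The 4 libraries of label numbers 16 to 18 held the 4 lowest Pou3f1 values of the females, 20 to 31.0 CPM, and 3 of them are FIDch, so diet and label number overlap.

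**Figure D4:**
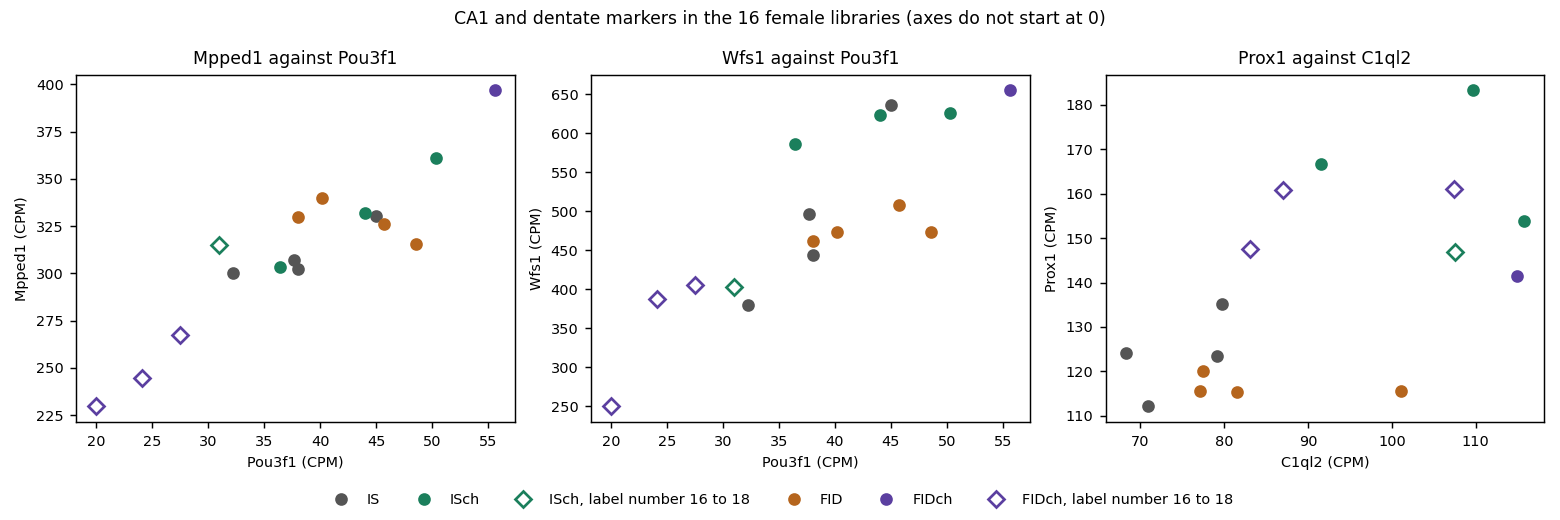
Levels in CPM of Mpped1 and Wfs1 against Pou3f1 and of Prox1 against C1ql2 in the 16 female libraries, coloured by diet group, with open diamonds for label numbers 16 to 18. The CA1 genes lie along a line from FIDch replicate 3 (Pou3f1 at 20) to FIDch replicate 4 (55.6), and in the dentate panel the choline libraries lie at 141.5 to 183.3 Prox1 CPM and the others at 112.1 to 135.1.

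The genes of a field varied together to different degrees. Over 16 libraries of a batch, 45 pairs of genes were compared, and permutation p-values were adjusted over the 90 values of both batches. In females 9 pairs had an adjusted p under 0.05 and in males 2. All 3 female CA1 pairs were among them. The share of pairs of other genes that would pass is not given, so these counts have no background. Whether genes of a field correlate more than other genes was therefore not tested. No r is given without the libraries of label numbers 16 to 18 as a set. Pou3f1 and Mpped1 had r = 0.93 and rho = 0.88 (adjusted permutation p = 0.0009 and 0.0018, where the unadjusted value for r, 1e-05, is the smallest that 100000 permutations can give), and r = 0.84 without the 2 libraries farthest from the median. Wfs1 had r = 0.87 with Pou3f1 and 0.83 with Mpped1 (rho = 0.83 and 0.80, adjusted permutation p = 0.0009 and 0.0015 for r and 0.0051 and 0.00855 for rho), and 0.76 and 0.65 without the 2 farthest libraries. After the diet group means were subtracted, r for the 3 pairs was 0.81 to 0.91. By rank, Wfs1 with Pou3f1 then passed (rho = 0.84, adjusted permutation p = 0.0066). Pou3f1 with Mpped1 (rho = 0.70, adjusted permutation p = 0.061) and Wfs1 with Mpped1 (rho = 0.63, adjusted permutation p = 0.103) did not. For these pairs in turn, r without the 2 farthest libraries was 0.78, 0.69 and 0.48.

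Rgs14, placed in CA2, went with CA1 genes in females, at r = 0.76 with Wfs1 (rho = 0.88) and r = 0.78 with Pou3f1 (rho = 0.77), with adjusted permutation p of 0.0151 and 0.0115 for r and 0.00225 and 0.0153 for rho. Without the 2 farthest libraries r was 0.76 and 0.74. Amigo2 went the other way, at r = -0.68 with Pou3f1 (rho = -0.74) and r = -0.67 with Mpped1 (rho = -0.61), with adjusted permutation p of 0.0429 and 0.0449 for r and 0.0213 and 0.0917 for rho. Without the 2 farthest libraries r was -0.83 and -0.82. The CA2 genes did not form a group of their own in females, since the 3 pairs among Amigo2, Rgs14 and Pcp4 had r of -0.48 to -0.03, none with an adjusted p under 0.05.

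The dentate genes of females had r of 0.48 to 0.68, and C1ql2 with Calb1 passed (r = 0.68, rho = 0.71, adjusted permutation p = 0.0374 and 0.0347, r = 0.52 without the 2 farthest libraries). Within the diet groups the 3 pairs had r of -0.36 to 0.36, none with an adjusted p under 0.05. Pcp4 went with Prox1 at r = 0.67 (rho = 0.69, adjusted permutation p = 0.0499 and 0.051, r = 0.54 without the 2 farthest libraries). With the diet group means subtracted it had r = 0.53 (rho = 0.53, adjusted permutation p = 0.136 and 0.214) and did not pass. In males Prox1 ran against C1ql2 at r = -0.54 (rho = -0.42, adjusted permutation p = 0.159 and 0.369, r = -0.18 without the 2 farthest libraries), which did not pass.

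The 2 male pairs that passed were Wfs1 with Pou3f1 (r = 0.70, rho = 0.62, adjusted permutation p = 0.0373 and 0.0895, r = 0.60 without the 2 farthest libraries) and Calb1 with Rgs14 (r = -0.66, rho = -0.66, adjusted permutation p = 0.0499 and 0.0687, r = -0.64 without them). After the diet group means were subtracted, the first had r = 0.71 (rho = 0.66, adjusted permutation p = 0.0237 and 0.085), and the second had r = -0.20 (rho = -0.10, adjusted permutation p = 0.766 and 0.908) and no longer passed. The male CA1 genes had a narrower range than the female ones. The highest Pou3f1 level was 1.31 times the lowest in males and 2.78 times in females, and for Wfs1 these were 1.36 and 2.62 times.

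**Figure D5:**
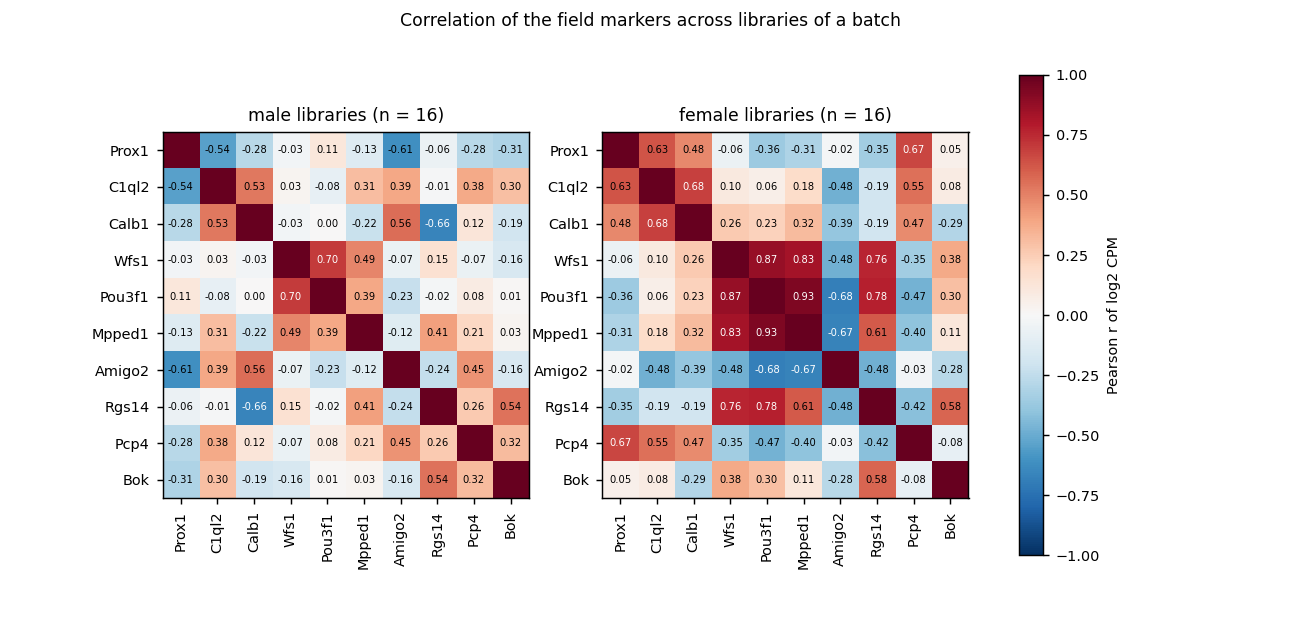
Pearson r of log2 CPM between each pair of the 10 genes over the 16 male (left) and 16 female (right) libraries, from -1 in blue to 1 in red. The female CA1 block of Wfs1, Pou3f1 and Mpped1 is at 0.83 to 0.93 and the female dentate block at 0.48 to 0.68, while the male dentate block runs from -0.54 to 0.53.

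Among 13381 other genes tested in both batches, those whose log2 CPM was most like the dentate mean in both were Prr3, Lrp12, Fam163b, Cap1 and Scg2. Scg2 encodes a secretogranin of dense-core vesicles and Cap1 an actin regulator. Fam163b had r = 0.73 in males and 0.86 in females, and Prr3 r = 0.78 and 0.83. Among those most like the mean of the 3 CA1 genes were Arhgap44, Cdh22, Clec2l and Lingo3. Cdh22, a cadherin gene, had r = 0.66 in males and 0.62 in females, and Clec2l r = 0.62 and 0.71. These genes were picked for their r over 16 libraries of each batch, which share depth and diet groups, so the values have no test.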

How the data were processed

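Hippocampal RNA of 32 rats, 4 per sex and diet group, was prepared with the RNAqueous and TruSeq RNA v2 kits and sequenced as 50-bp paired ends per the labels. The authors deposited raw counts of reads per gene, without normalization, in 1 table per batch. The submitters' processing notes name FastQC, Trimmomatic, HISAT2, featureCounts, Subread and the build Rnor_6.0, and the study's methods place HISAT2 and featureCounts. Whether counting used strand, how reads matching several genes were treated and the annotation are not given in the sources used here. Deposited totals were 3515806 to 9517503 counts per male and 18439999 to 26616318 per female library.

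Rows were taken by symbol. Each pair of groups was fitted apart in edgeR 4.0.16 (R 4.3.3) over all genes, with filterByExpr, TMM factors and the 2-sided quasi-likelihood test, and Benjamini-Hochberg adjustment over all genes tested. The 4-group test and interaction used 16 libraries of a batch, and differences between batches 16 libraries of 2 groups. SEs were taken from the fold change and the F statistic. CPM were computed within each batch from TMM factors, and log2 CPM with a pseudocount of 0.5. Correlations had 2-sided permutation p-values (100000 permutations, NumPy 2.4.6). The fits were also run on simulated counts, and the outcome is not given here. The simulated libraries were independent and none was outlying, so that run does not cover libraries such as female FIDch replicate 4. P-values measure the spread between these libraries. Littermates would not be independent, and whether the rats of these libraries came from separate litters is not stated. Replicates of a group differed by more than counting noise in all 48 pairs, with a chi-square of 2.02 to 25.24 per gene. Values of 22.39 to 25.24 came from female FIDch replicate 4 paired with the rest of its group. The highest value of any other pair was 14.27, in female ISch.

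The genes and marker lists were chosen with earlier results of these data known. The naming rule was all 10 genes, further field genes as counts with the called genes of the 2 largest absolute fold changes, and the 5 genes most like the dentate and the CA1 means. Where a paragraph names more of a list, they were named after their values were seen. Alternatives were DESeq2 1.42.0, RLE factors, library size alone, no expression filter, the likelihood ratio test, 4 groups fitted together, replicate numbers as a block, adjusted p in place of the criterion, other forms of the ratio, and leaving out libraries. Some genes that this rule or the marker lists would name are not reported here.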

Additional observations from a re-analysis of the deposited data

Results flagged for a closer look

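Among 88 sets of 4 libraries examined, 5 had a library far from the other 3, and chance gives about 1 in 20. In males these were Prox1 in ISch replicate 2 at 128.0 CPM beside 124.5 to 124.9, Wfs1 in FIDch replicate 1 at 461.5 CPM, above the rest of its group, and Pou3f1 in IS replicate 1 at 38.9 CPM, below it. In females these were Prox1 in FID replicate 1 at 120.1 CPM beside 115.4 to 115.6, and Rgs14 in FIDch replicate 4 at 179.0 CPM beside 139.8 to 146.2. The Prox1 libraries stood apart because the other 3 lay close together.

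Effects that differed between conditions or batches were the male interaction of iron and choline for C1ql2 (0.31) and Bok (0.36), on the log2 scale, where 14.4% of all genes were called. Between batches, as male minus female, FID against IS differed for C1ql2 (-0.34) and Bok (-0.30). ISch against IS differed for C1ql2 (-0.74) and Calb1 (-0.56), the 2 of this set with an edgeR adjusted p under 0.05. FIDch against IS differed for C1ql2 (-0.50), Calb1 (-0.55), Rgs14 (0.37) and Pcp4 (-0.30). All batch differences are differences between sexes too, and these cannot be told apart.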

How the results depend on the processing

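With RLE factors, library size alone, no expression filter, the likelihood ratio test, 4 groups fitted together or DESeq2, no call of a gene was lost and no count of called genes moved by over 1.5 times. Requiring an adjusted p under 0.05 took the count of called genes to 0 in male FID against IS, ISch against IS, FIDch against IS and FIDch against FID (1 with 4 groups fitted together or DESeq2), in the male 4-group test and interaction, in female FIDch against IS (2 with 4 groups fitted together and 3 with DESeq2), and in the batch differences of FID and FIDch. Replicate numbers did not pair libraries, since same-numbered libraries deviated with correlations of -0.165 to 0.233 in males and -0.177 to 0.212 in females. With them as a replicate block the counts were 2 in male FID against IS, 5 in female FIDch against FID, 3 in female FIDch against ISch and 1 in the female interaction, and Calb1 in female FIDch against IS was lost. Leaving out each library gave 1 to 2 in male FID against IS, 0 to 3 in male ISch and 0 to 2 in male FIDch against IS, 1 to 3 in male FIDch against FID, 0 to 2 in female FID against IS, 3 to 8 in female FIDch against IS, 2 to 7 in female FIDch against FID and 0 to 3 in female FIDch against ISch. The highest counts in the last 3 came without FIDch replicate 4. The share of all genes called in these alternative fits is not given, so their counts have no background. Without the male libraries whose names end in an added number and letter, 1 gene was called in ISch and 0 in FIDch against IS. Leaving out label numbers 16 to 18 was tried once the data had been seen and left a lone FIDch library. In FIDch against IS, Prox1 then lost its call at 0.19 and Rgs14 reversed to 0.009. The median over genes took the female FIDch ratio to 0.10 above IS. The causes were not tested. Male libraries were shallower, and whether depth limited their calls was not tested. Promoters, proteins and transcript lengths of all genes were not used here.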
